A study of Mus musculus with 4 samples.

Results

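Chromatin contacts that were listed in only 1 of 2 inhibitory neuron classes, yet started from a region listed in both, were collected from H3K27ac HiChIP of mouse cortex. An anchor is either end of a listed interaction. A common anchor is one that overlaps, by at least 1 bp, an anchor of the other cell type's list, and a partner is the far end that overlaps none. The interactions were chosen by the listed anchors themselves: exactly 1 of their anchors had to be common. Of the 15011 interactions in both lists, 4625 met this rule. They were 2504 of 8278 interactions (30.2%) in somatostatin (SST) interneurons and 2121 of 6733 (31.5%) in vasoactive intestinal peptide (VIP) interneurons. These counts, and the numbers of partners below, follow from the rule and are given as descriptions.

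The nuclei came from adult cortex of mice on a C57BL/6 background with the genotype Sst-cre; Sun1 or Vip-cre; Sun1, 2 labelled samples per genotype. Cre, driven by the Sst or the Vip gene, switches on a tagged Sun1 protein of the nuclear envelope, which allows nuclei of that class to be captured. All samples carry this tag, and in all of them chromatin was cut with MboI, enriched with an H3K27ac antibody and made into libraries with the Tn5 transposase. The lists analysed here, 1 per cell type, are attached to replicate 1, and the sources used here do not say if animals or replicates were pooled. Without a second list per class no difference could be tested against a spread between animals, and no p-value was computed. Read depth is unknown, so a contact listed for 1 class was uncalled in the other and may still have been present.

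H3K27ac marks active promoters and enhancers, and HiChIP reports which marked regions lie near each other in the folded chromosome. One promoter can touch several enhancers, and a gene active in related cell types can be served by different enhancers in each. SST and VIP interneurons both release GABA. They arise mainly from different parts of the embryonic forebrain, the medial and the caudal ganglionic eminence. Coordinates below are those of the files, build mm9, and are printed unchanged, without knowing if they are 0- or 1-based. An annotation of this build was not used here, so no gene was assigned to an anchor by the data and the labelled classes were not checked against marker genes. Gene names below come from general knowledge of the mouse gene map, for orientation only.

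A first question was which common anchors gained partners, and in which cell type. Overlapping SST and VIP anchors were joined into 1945 common loci, of which 85.1% consisted of 1 SST and 1 VIP anchor. SST partners alone were listed at 472 loci (24.3% ± 1.28, a standard error obtained by dropping 1 chromosome at a time; exact 95% interval 22.4 to 26.2%). VIP partners alone were listed at 362 loci (18.6% ± 1.24, 16.9 to 20.4%). Both lists added partners of their own at 445 loci (22.9% ± 1.10, 21.0 to 24.8%), and neither did at the remaining 666 (34.2%). The SST list was also the longer one (8278 against 6733 interactions), and the part of list length in these counts was not tested. With identical coordinates required, 189 common loci were left, of which 2.12% had SST partners alone, 0.53% VIP partners alone and 93.1% both. Anchors that overlap with differing ends then count as absent, so far ends of shared interactions can become partners in both lists. The shares under identical coordinates are therefore largely set by that setting. With interactions of up to 200 kb alone, 14.4% of common loci had both.

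Most loci gained few partners. Of the 917 loci with an SST partner, 405 had exactly 1 and 142 had 5 or more. Of the 807 loci with a VIP partner, 385 had exactly 1 and 120 had 5 or more. The 142 and 120 busy loci held 42.8% ± 3.23 of the SST and 43.0% ± 2.95 of the VIP interactions with 1 common anchor. A locus with partners had a mean of 2.67 in SST and 2.58 in VIP, and the highest numbers were 30 and 21. Across the 1945 loci, the numbers of SST and VIP partners had a Spearman correlation of 0.11, given as a description because loci within a chromosome share interactions.

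**Figure D1:**
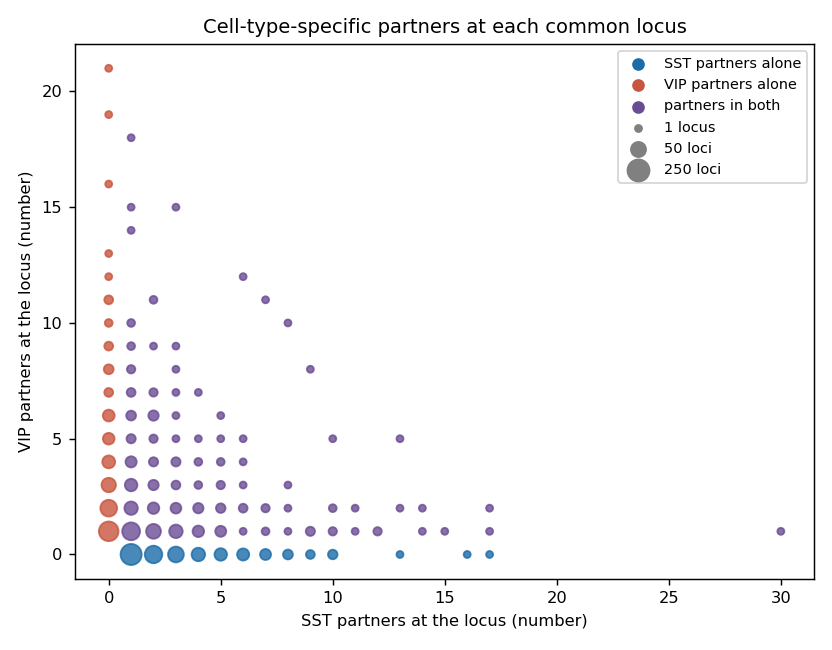
Number of SST partners (horizontal) and VIP partners (vertical) at each common locus with at least 1 partner. The area of a point grows with the number of loci at that position. Blue points on the lower edge are the 472 loci with SST partners alone, red points on the left edge the 362 loci with VIP partners alone, and purple points the 445 loci with both.

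Loci that gained partners in 1 list had a lower median number of interactions in the other list. The sorting of loci by partners partly sets these numbers, because interactions to partners are counted among them. At the 472 loci with SST partners alone, the median number of interactions was 4 in SST and 2 in VIP, and 234 of them had exactly 1 VIP interaction. At the 362 loci with VIP partners alone, the medians were 5 in VIP and 2 in SST, and 176 had exactly 1 SST interaction. At the 445 loci with partners in both lists, the median was 4 in each. Loci without partners had the fewest, a median of 1 in each list, with exactly 1 VIP interaction at 61.9% and exactly 1 SST interaction at 58.6% of them. An interaction shared by both lists was also present at 86.2% (82.8 to 89.2%) of loci with SST partners alone, 84.0% (79.8 to 87.6%) of those with VIP partners alone and 66.5% (61.9 to 70.9%) of those with both. This order is partly built in, because a list that adds no partner at a locus can have only interactions between common anchors there.

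The locus with the most VIP partners and no SST partner lay on chromosome 4, 76061428 to 76110770. This is a part of the chromosome known for Ptprd, a receptor tyrosine phosphatase of synapses. It had 22 VIP interactions and 1 SST interaction, which was shared. Of its 21 VIP partners, 19 lay to the left, toward lower coordinates, at up to 873 kb, and 2 to the right. The VIP partners were thus spread over a long stretch on 1 side of an anchor that SST listed with a single contact.

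The next VIP locus, on chromosome 2 from 28041636 to 28090320, lies in a part known for Olfm1, a secreted protein of neurons. It had 19 VIP partners, 7 on the left and 12 on the right, with a median distance of 156 kb. The 12 on the right lay between 35.0 and 236 kb, and the 7 on the left between 37.9 and 613 kb. SST listed 1 interaction at this locus, a shared one, which reached past all 12 partners on the right. With anchors within 5 kb merged, the 19 partners became 11. On chromosome 16, the locus 97376645 to 97396622 had 16 VIP partners, of which 15 lay on the left at 67.0 to 662 kb. SST listed 3 interactions at this locus, and all of them were shared. Its 16 partners became 10 with anchors within 5 kb merged.

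Of the other VIP loci named by rank, that on chromosome 2 from 144457036 to 144514058 had 13 partners at a median of 652 kb, 12 of them on the right. The locus on chromosome 17, 56494730 to 56552368, had 12 partners on both sides and differed from the others in being well linked in SST, with 12 interactions. The 11 partners of chromosome 4, 141410908 to 141444458, and the 11 of chromosome 8, 24777400 to 24811000, all lay on the right. Chromosome 5, 116354428 to 116388785, had 9 of 11 partners on the left. Among these 8 loci the median distance ran from 156 to 652 kb. The 12 partners on chromosome 17 became 7 with anchors within 5 kb merged, as did the 11 on chromosome 4 and the 11 on chromosome 8.

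In SST, the locus with the most partners and none in VIP lay on chromosome 13, 45731491 to 45783999. It had 17 SST partners, 15 of them on the right, at 38.8 to 561 kb. VIP listed 3 interactions there, all shared. With anchors within 5 kb merged, the 17 partners became 11. Chromosome 5, 27371840 to 27410026, had 16 SST partners, again 15 on the right, at a median of 433 kb and up to 727 kb. VIP listed 4 interactions there, all shared, and its links reached past 10 of the 15 SST partners on that side. Chromosome 5, 37273877 to 37342971, had 13 SST partners, 4 on the left and 9 on the right, and every one lay farther out than any VIP interaction of that locus on the same side.

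The other 5 SST loci named by rank had 10 partners each. Chromosome 1, 196443843 to 196475453, had 7 of them on the right at 28.0 to 386 kb and 3 on the left at 637 to 933 kb. Chromosome 2, 179520145 to 179566831, had the shortest distances, with a median of 63.8 kb, and chromosome 3, 78913395 to 78961559, followed at 88.1 kb. Chromosome 4, 13687210 to 13732582, had 5 partners on each side at a median of 370 kb. Chromosome 9, 40117762 to 40159700, had 7 on the right. VIP listed 1 or 2 interactions at each of these 5 loci. On chromosome 3 the 1 VIP interaction joined the 2 VIP anchors of the locus to each other, so VIP listed no contact leaving it. With anchors within 5 kb merged, the 10 partners on chromosome 2 and the 10 on chromosome 9 became 6 each, and the locus on chromosome 3 was no longer a common one.

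**Figure D2:**
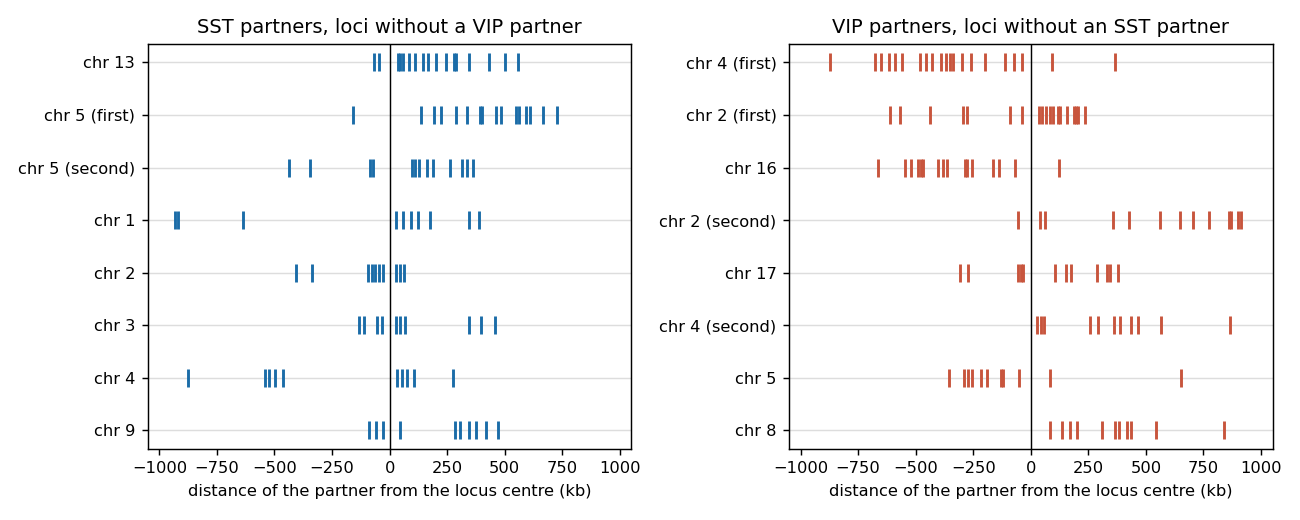
Positions of the partners at the 8 loci with the most SST partners and no VIP partner (left panel, blue) and the 8 with the most VIP partners and no SST partner (right panel, red). Each tick is 1 partner, at its midpoint's distance in kb from the centre of the locus; loci are named by chromosome in order of rank. Many loci have most of their partners on 1 side, such as the first chromosome 4 locus of VIP with 19 of 21 on the left.

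Loci with partners in both lists were ranked by the smaller of their 2 partner counts. SST and VIP partners cannot coincide by the rule, so only their sides and distances are described. First in rank, with the same smaller count of 8 as the next, was chromosome 2, 71345229 to 71387539, in a part known for Dlx1 and Dlx2, transcription factors that forebrain interneurons depend on. It had 23 SST and 25 VIP interactions, and 15 of each list were shared. Its 10 VIP partners lay mostly on the left, 7 of them at 31.8 to 407 kb. Its 8 SST partners were farther away, at a median of 543 kb against 281 kb in VIP, and 6 lay on the right at 480 to 648 kb. The 6 SST partners ran from 71839913 to 72019552, and 1 VIP partner, 71921503 to 71935824, lay between them. When anchors up to 10 kb apart counted as overlapping, the 10 VIP partners became 4.

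On chromosome 8, 118200268 to 118242861, the lists took nearly opposite sides. This part is known for Maf, a transcription factor of interneurons from the medial eminence. All 8 VIP partners lay on the left, at 79.3 to 561 kb. Of the 9 SST partners, 7 lay on the right, at 51.1 to 599 kb, and 2 on the left. Shared interactions numbered 6 in SST and 5 in VIP. The 8 VIP partners became 4 when anchors up to 10 kb apart counted as overlapping and also with anchors within 5 kb merged.

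On chromosome 3, 34531738 to 34580174, in the part known for Sox2, a transcription factor of neural progenitors that some neurons keep, shared interactions made up 19 of 32 in SST and 17 of 23 in VIP. SST added 13 partners, 8 on the left and 5 on the right, and VIP added 5, of which 3 lay on the left. The farthest SST partners, at 906 and 912 kb on the right, lay beyond every VIP interaction of the locus on that side. When anchors within 5 kb were merged, the 13 SST partners became 5 and the 5 VIP partners 3.

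Of the loci with many partners in both lists, 4 others lay on chromosomes 11, 5 and 4. Chromosome 11, 118730870 to 118780569, had 6 SST partners, 5 of them on the left at 76.9 to 149 kb, and 12 VIP partners, of which 7 lay on the left beyond these at 275 to 401 kb. Chromosome 5, 126375327 to 126417448, had 10 SST partners with 8 on the right at 362 to 807 kb, and 5 VIP partners, of which the 3 on the right lay within 61.5 kb. When anchors up to 10 kb apart counted as overlapping, the 5 VIP partners became 2 and the 10 SST partners stayed at 10. Its neighbour at 126100204 to 126196648 had 5 SST partners at a median of 849 kb and 6 VIP partners at a median of 224 kb. That neighbour was 96.4 kb wide and held 5 SST anchors and 1 VIP anchor, so these distances start from different anchors. These neighbours are not independent: 3 of the SST partners, from 126981688 to 127182051, and 5 of the VIP partners were linked to both. Chromosome 4, 137998409 to 138029228, had 6 SST and 5 VIP partners and all but 1 of them lay on the right. When anchors up to 10 kb apart counted as overlapping, 3 VIP partners were left at this locus and 3 at the second chromosome 5 locus. With anchors within 5 kb merged, the locus on chromosome 11 had 3 SST and 7 VIP partners.

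The most SST partners of any locus, 30, were listed on chromosome 9, 28686966 to 28749132, a locus that was picked out after its value was seen. Its single VIP interaction led to the anchor 29002933 to 29053352, at 329 kb, which overlapped no SST anchor. The locus therefore counts as having partners in both lists on the strength of 1 VIP interaction.

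**Figure D3:**
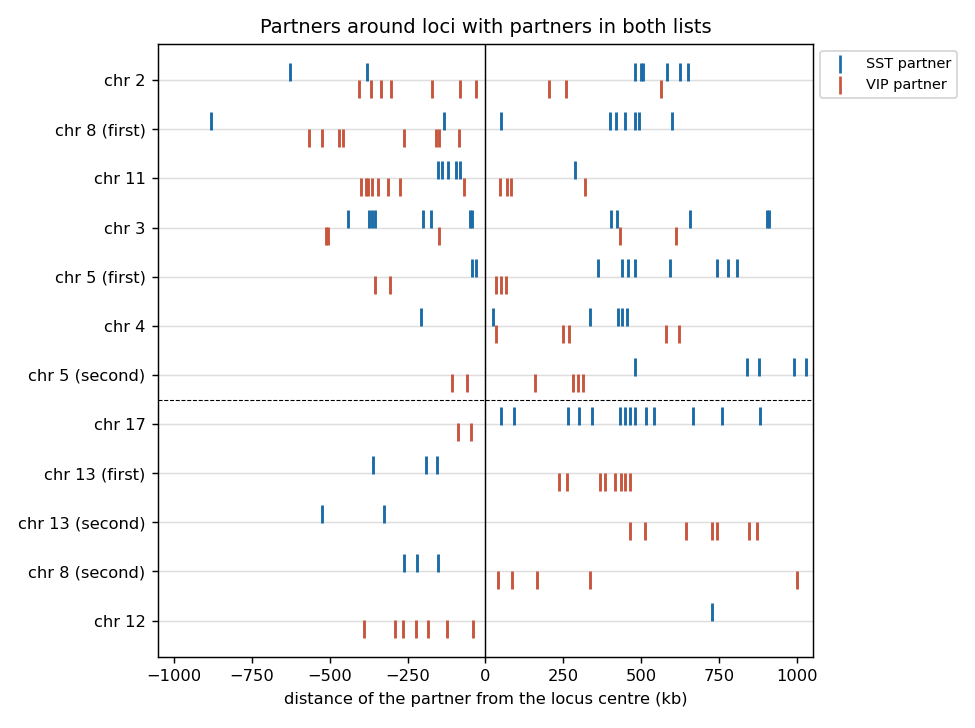
Positions of SST partners (blue, upper ticks) and VIP partners (red, lower ticks) around common loci, as distance in kb from the centre of the locus. Above the dashed line are 7 of the 8 loci with the most partners in both lists, below it the 5 opposite-side loci with the most partners. At the first chromosome 8 locus all 8 VIP partners lie on the left and 7 of 9 SST partners on the right.

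A second question was how far the partners lay. In both lists, interactions with 1 common anchor had the longest median of the 4 kinds. The median distance between their anchor midpoints was 245 kb ± 24.2 for SST (standard error over chromosomes; 217 to 270 kb, an order-statistic interval) and 241 kb ± 18.1 in VIP (218 to 258 kb). Shared interactions had medians of 119 and 118 kb. For interactions with no common anchor the SST median was 182 kb and the VIP median 150 kb. Those that joined common anchors but were listed once had medians of 139 and 184 kb, shorter by 106 kb ± 22.8 in SST (17 of 19 chromosomes) and 57.0 kb ± 27.5 in VIP (14 of 19). This kind also holds interactions whose 2 anchors overlap the same anchor of the other list, which by the rule cannot be shared. Their number, and their part in these medians, was not tested. With identical coordinates required, the SST difference was 6.10 kb, and in VIP interactions with 1 common anchor became the shorter ones, with a difference of -455 kb. Only 189 common loci were left under that setting. The number of interactions joining them was not tallied and no interval was computed, so the size of these differences cannot be judged. The excess over shared interactions came to 126 kb ± 24.8 for SST and 123 kb ± 21.2 for VIP, larger than its standard error, and it was positive on 17 of 19 and 17 of 20 chromosomes with both kinds. Among interactions of up to 200 kb it was 12.4 and 16.1 kb. The excess over interactions with no common anchor was 62.9 kb ± 32.4 in SST, less than 2 standard errors, and 91.4 kb ± 16.4 in VIP. The SST value ran from 12.9 kb among interactions of up to 200 kb and 21.2 kb with identical coordinates to 113 kb with anchors up to 10 kb apart counted as overlapping and 114 kb with partners at least 10 kb from every VIP anchor. With anchors within 5 kb merged, the VIP excesses were 74.2 kb over shared interactions and 36.1 kb over those with no common anchor.

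The share of interactions with 1 common anchor was lowest among short interactions. It was 22.2% (20.4 to 24.1%) of SST and 22.8% (20.7 to 24.9%) of VIP interactions of up to 50 kb, below the 30.2% and 31.5% of the whole lists. It reached 36.8% (34.1 to 39.6%) at 400 to 600 kb in SST and 36.6% (34.3 to 38.9%) at 200 to 400 kb in VIP. Beyond 600 kb the values were 35.8% and 37.2%.

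**Figure D4:**
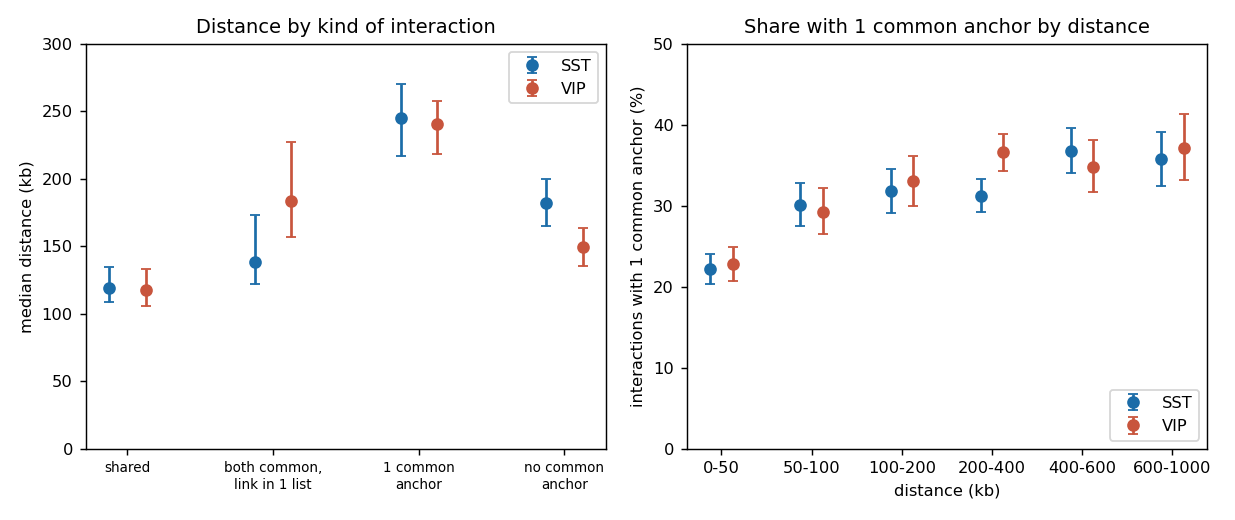
Left, median distance in kb of 4 kinds of interaction in SST (blue) and VIP (red), with 95% order-statistic intervals. Right, percent of interactions in each distance class that have 1 common anchor, with exact 95% binomial intervals. Interactions with 1 common anchor have the highest median in both lists (245 and 241 kb), and their share is lowest up to 50 kb.

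Compared locus by locus, the median excess over shared interactions was smaller or gone. At 703 loci that held both kinds in SST, the locus median of interactions to partners exceeded that of shared interactions by a median of 33.6 kb ± 5.65 and was the longer one at 57.5% (53.7 to 61.2%) of loci. At 600 such loci in VIP the median difference was -1.77 kb ± 5.94, and partners were the farther ones at 49.5% (45.4 to 53.6%) of loci. The SST difference exceeded its standard error and the VIP difference did not. The gap between the lists was not tested. Over the 703 SST loci, the median of locus medians was 219 kb for partners and 129 kb for shared interactions. Over the 600 VIP loci these medians were 211 and 140 kb. Against all interactions between common anchors, the within-locus difference was 18.8 kb (-0.79 to 35.3 kb) at 764 SST loci. At 649 VIP loci it was -9.19 kb (-23.5 to 2.27 kb). Both differences from shared interactions changed with the rule for absence. With partners at least 10 kb from every anchor of the other list the SST value was 64.2 kb and the VIP value 37.2 kb, and with anchors up to 10 kb apart counted as overlapping 51.1 and 5.26 kb. Among interactions of up to 200 kb the SST value was 6.83 kb.

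Distance also differed with what the other list did at the locus. SST partners at loci that had VIP partners too lay at a median of 309 kb, against 166 kb at loci with SST partners alone. The difference was 143 kb ± 19.9 and was positive on 18 of 19 chromosomes. In VIP the corresponding medians were 246 and 233 kb, a difference of 12.5 kb ± 40.3, well within its standard error. The gap between the cell types was not tested. Among SST interactions of up to 200 kb the difference was 1.36 kb, and with anchors within 5 kb merged it was 83.9 kb.

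At the 445 loci with partners in both lists, the SST locus median was 281 kb and the VIP locus median 205 kb. The difference per locus had a median of 27.6 kb ± 14.7, less than 2 standard errors, and SST partners were the farther ones at 251 loci (56.4%, 51.7 to 61.1%). Locus medians of the lists had a Spearman correlation of 0.25 over these loci, a description that includes the reach of the shared anchor.

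The side of the common anchor on which partners lay was compared next. Over each list the sides were balanced. SST partners lay on the left in 1252 interactions and on the right in 1252, and VIP partners lay on the left in 1107 and on the right in 1014 (52.2% ± 2.88 left). Some single loci had all their partners on 1 side, which a few partners can show without any preference. No expected share was computed. Of 322 loci with 3 or more SST partners, 119 (37.0%, 31.7 to 42.5%) had all of them on 1 side, and 104 of 257 such loci in VIP did (40.5%, 34.4 to 46.7%).

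At 247 of the 445 loci with partners in both lists, each list used a single side. Both used the same side at 150 of these loci, 75 on the left and 75 on the right, or 60.7% ± 2.93 (54.3 to 66.9%). They used opposite sides at 97. The share was 51.9% (41.9 to 61.8%) of the 104 loci with 1 partner in each list and 67.1% (58.8 to 74.8%) of the 143 loci with more. At 37 of these 143 loci, each list had 2 or more partners. There the share was 64.9% (47.5 to 79.8%), an interval that includes an even split. Among interactions of up to 200 kb, the share over all loci with a single side in each list was 45.9%. No interval was computed for this value, so it cannot be told from an even split.

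Among loci with opposite sides, that on chromosome 17, 9337589 to 9386326, had the most partners. Its 14 SST partners all lay on the right, at 39.2 to 872 kb, and its 2 VIP partners on the left, at 37.2 and 79.7 kb. Both lists shared 4 interactions there. On chromosome 13, 69117547 to 69149414, the 3 SST partners lay on the left and the 8 VIP partners on the right at 233 to 462 kb. On the same chromosome, 84181928 to 84210667 had 2 SST partners on the left and 7 VIP partners on the right at 463 to 872 kb. Chromosome 8, 60264922 to 60298171, had no shared interaction at all, with 3 SST partners on the left and 5 VIP partners on the right. Chromosome 12, 29765069 to 29787136, had 7 VIP partners on the left and 1 SST partner on the right, at 735 kb. This locus had no shared interaction either, and SST listed 1 interaction there against 12 in VIP.

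Partners were next placed against the reach of the other list, that is, its farthest interaction from the same locus on the same side. In SST, 45.6% (43.7 to 47.6%) of the interactions with 1 common anchor ended within the reach of VIP, 36.2% (34.3 to 38.1%) beyond it, and 18.2% on a side where VIP listed no interaction from the locus. In VIP, 54.5% (52.3 to 56.6%) ended within the reach of SST, 27.7% (25.8 to 29.7%) beyond it and 17.8% on a side without an SST interaction. The classes are themselves cut by distance. Partners beyond the reach had an SST median of 373 kb and a VIP median of 355 kb, those within it 165 and 173 kb. The part of list length in the difference between the cell types was not tested.

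**Figure D5:**
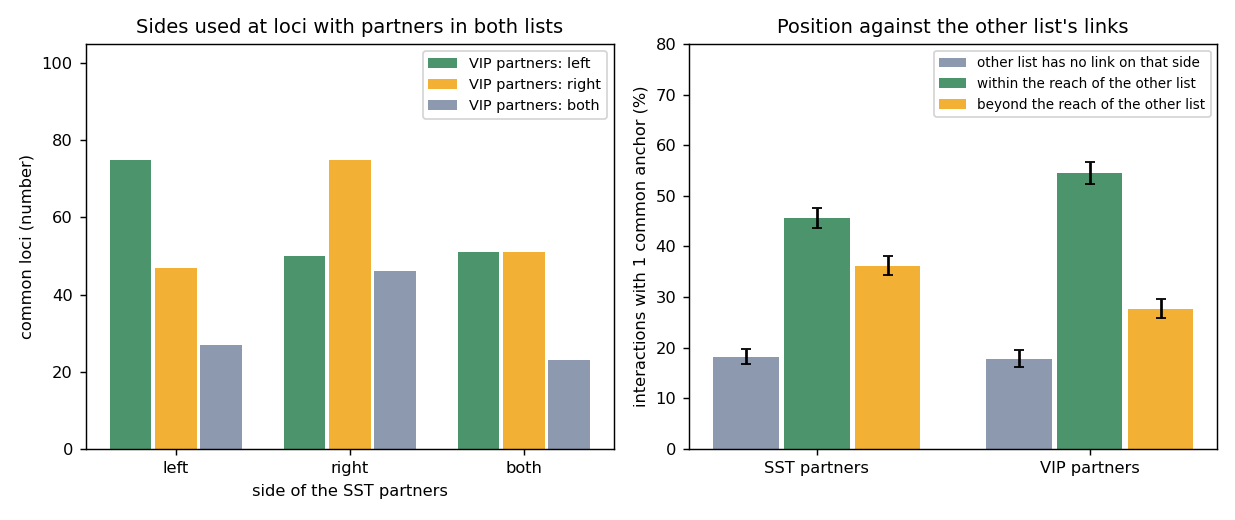
Left, number of common loci with partners in both lists by the side of their SST partners (groups of bars) and VIP partners (colours); both means partners on each side. Right, percent of interactions with 1 common anchor that end on a side without an interaction of the other list, within its reach or beyond it, with exact 95% intervals. The same-side bars (75 and 75 loci) are taller than the opposite-side bars (47 and 50).

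The partners themselves were 1567 anchors in SST and 1291 in VIP, that is, 42.5% and 47.2% of the anchors that overlapped none of the other list. The common anchors they joined stood out as wide, with a median width of 17.2 kb (16.4 to 18.4 kb) for SST and of 18.4 kb for VIP. Partners were about as wide as the other anchors. Their median was 10.95 kb (10.4 to 11.5 kb) in SST, between 10.1 kb for the other common anchors and 11.6 kb for the other anchors that overlapped none. In VIP the partners' median was 11.4 kb, and those of the same other classes were 11.2 and 12.0 kb. The common anchors that carried partners had a median of 4 interactions in SST and 4 in VIP, other common anchors 1. Anchor positions and interactions both enter the rule, so these values are descriptions.

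The gap to the nearest VIP anchor had a median of 35.6 kb ± 1.45 for SST partners, and that to the nearest SST anchor a median of 35.4 kb ± 3.64 for VIP partners. It was under 10 kb for 22.4% (20.4 to 24.5%) of SST and 24.01% (21.7 to 26.4%) of VIP partners. At 348 loci both lists had a partner on the same side, and the nearest SST and VIP partners lay a median of 59.5 kb apart. They lay under 10 kb apart at 16.1% (12.4 to 20.4%) of these loci and under 50 kb apart at 44.0% (38.7 to 49.4%).

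Some partners served several common loci. Of the SST partners 507 (32.4% ± 2.25) and of the VIP partners 429 (33.2% ± 1.61) were linked to 2 or more common loci, and 59.5% and 59.6% were linked to common anchors alone. The following were picked out after their values were seen. In VIP, the anchors at chromosome 9, 29002933 to 29053352, and chromosome 6, 90746511 to 90794593, were each linked to 12 common loci, and chromosome 2, 30735960 to 30761396, to 11. The first is the VIP partner of the chromosome 9 locus with 30 SST partners. In SST, the anchor at chromosome 12, 30480254 to 30525938, was linked to 10 common loci. It is also the SST partner of the chromosome 12 locus whose VIP partners lay on the opposite side. The gaps from these 4 anchors to the nearest anchor of the other list were 14.5, 7.60, 19.2 and 16.6 kb, so 3 of them would still count as partners if gaps of up to 10 kb were bridged.

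At the edge of the rule, 1 SST and 2 VIP partners touched an anchor of the other list at 0 bp and counted as not overlapping. They were 12436353 to 12441654 on chromosome 8 in SST, and 138080298 to 138097984 on chromosome 2 and 47369574 to 47387305 on chromosome 9 in VIP. The next SST partner, 25796346 to 25845713 on chromosome 18, and a VIP partner, 25782680 to 25796340, lay 6 bp from each other. On chromosome 8, the SST partner 75728548 to 75763041 lay 20 bp from a VIP anchor. Just inside, among common anchors with a partner, the smallest overlap was 259 bp in SST (chromosome 6, 135727255 to 135761251), followed by 1125 bp (chromosome 11, 67356840 to 67378508) and 1921 bp (chromosome 12, 90690890 to 90704683). In VIP the smallest were 1125 bp (chromosome 11, 67377383 to 67388800), 2840 bp (chromosome 1, 134561721 to 134580337) and 3313 bp (chromosome 6, 50253892 to 50279430). These were exceptions, since common anchors with partners overlapped by a median of 13.2 kb (SST) or 12.6 kb (VIP), and at the median it covered 100% of the shorter anchor.

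By autosome, the share of interactions with 1 common anchor ran from 22.4% (18.9 to 26.1%) on chromosome 17 to 42.9% (37.6 to 48.5%) on chromosome 13 in SST, with chromosome 9 at 42.3%. In VIP it ran from 15.2% (9.76 to 22.1%) on chromosome 19 to 36.3% (32.0 to 40.9%) on chromosome 8. Chromosome 8 was thus the highest autosome in VIP and, at 22.4%, among the lowest in SST. Chromosome 17, the lowest in SST, was likewise high in VIP at 35.8% (31.0 to 40.8%). On chromosome X, 0 of 7 SST interactions (0 to 41.0%) and 3 of 11 VIP interactions had 1 common anchor.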

How the data were processed

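H3K27ac HiChIP was labelled for 4 samples, 2 per cell type; 1 list of interactions per cell type was analysed here, and the other samples were not analysed. Each list deposited by the authors has 6 columns, the chromosome, start and end of both anchors, with no count, score or p-value per interaction. HiC-Pro and build mm9 are named per the submitters' processing notes; the sources used here name no loop caller, threshold or read depth. Anchors were compared by coordinate overlap of at least 1 bp, overlapping SST and VIP anchors were joined into common loci, and distances were taken between anchor midpoints. Intervals are exact binomial (Clopper-Pearson) or order-statistic 95% intervals. They cover counting error only, and interactions that share an anchor are not independent, so standard errors from dropping 1 chromosome at a time are given too. No test was made. Named were the 8 loci with the most partners in SST alone, in VIP alone and in both (by the smaller number), and the 5 opposite-side loci with the most partners. Of the loci with partners in both, 1 is not reported here. The members and lists were chosen with earlier results of these data known. Code was checked on planted lists (matplotlib 3.10.9, scipy 1.17.1, pandas 2.3.3, numpy 2.4.6, Python 3.11.15). Other settings changed the overlap rule, distance range, merging, chromosomes, unit counted and the named loci.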

Additional observations from a re-analysis of the deposited data

How the results depend on the processing

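Of 208 values recomputed for 20 results, 141 kept their direction and stayed within the interval of the reported value (for differences of medians, a 95% normal interval from the standard error), 60 moved outside it and 7 changed sign. Autosomes alone left 2504 SST and 2118 VIP interactions with 1 common anchor, against 2504 and 2121 under the main rule. Counting touching anchors as overlapping left 2503 and 2119. These settings could move little, and all of their values are among the 141. Of the 141, 15 still differed from the reported value by over 1.5 times. For all of these the cause was not tested except where the setting itself fixes it. No paired analysis was possible because SST and VIP are represented by a single list each, without per-replicate values, and no replicate could be left out. Requiring identical coordinates left 189 common loci. Anchors that overlap with differing ends then count as absent, so far ends of shared interactions can become partners in both lists. The share of interactions with 1 common anchor became 5.99% (SST) and 6.04% (VIP), their median distance 199 and 173 kb, loci with SST partners alone 2.12%, with VIP partners alone 0.53%, with both 93.1%, loci with any SST partner 95.2% and with any VIP partner 93.7%, and same-side loci 92.8%. Under it the distance excess over interactions joining common anchors was 6.10 kb (SST) and -455 kb (VIP), over those with no common anchor 6.19 kb (VIP), and between loci with both and with own partners alone 26.4 kb (SST) and 119 kb (VIP). The number of interactions joining common anchors was not tallied under identical coordinates. Counting anchors within 10 kb as overlapping gave shares of 25.4% and 26.2%, medians of 292 and 270.1 kb, SST excesses of 182 kb over shared and 152 kb over common-to-common interactions, and within-locus differences of 51.1 kb (SST) and 5.26 kb (VIP). Partners at least 10 kb from every anchor of the other list gave shares of 23.1% and 23.6%, medians of 296 and 274 kb, SST excesses of 177 and 158 kb, a VIP excess of 124 kb over interactions with no common anchor, within-locus differences of 64.2 and 37.2 kb, 16.4% of loci with both, and 39.7% and 34.6% with any SST or VIP partner. Merging anchors within 5 kb gave medians of 302 and 275 kb, VIP excesses of 74.2 kb over shared and 36.1 kb over no-common-anchor interactions, and both-minus-own differences of 83.9 kb (SST) and -3.48 kb (VIP). Interactions of up to 200 kb, which by construction shorten every distance, gave shares of 22.1% and 22.9%, medians of 65.6 and 69.0 kb, excesses over shared of 12.4 and 16.1 kb, an SST excess of 28.4 kb over common-to-common and a VIP excess of 14.5 kb over no-common-anchor interactions, an SST within-locus difference of 6.83 kb, an SST both-minus-own difference of 1.36 kb, 14.4% of loci with both, 38.8% and 33.8% with any SST or VIP partner, and 45.9% same-side loci. Interactions of 20 kb or longer gave an SST median of 278 kb and a VIP both-minus-own difference of -1.07 kb. Without the 24 named loci the shares were 28.9% and 29.9% and the VIP within-locus difference 0.24 kb. Single anchors in place of loci gave 44.4% with an SST partner. Chosen after seeing the data, counting each locus once gave medians of 213 and 209 kb, differences within loci were 33.6 kb (SST) and -1.77 kb (VIP), and same-side shares were 51.9% at loci with 1 partner in each list and 67.1% at those with 3 or more in all. Of 370 partner counts at named loci, 315 stayed within 1.5 times and 55 did not. The 315 include the counts of 0 by which loci with partners in 1 list alone were chosen. These stayed at 0 wherever a count could be given, so the 315 overstate how stable the other counts were. No count could be given for 5 of the 24 named loci with interactions of up to 200 kb, and for 1 each with anchors within 5 kb merged and with interactions of 20 kb or longer, where the locus was no longer common. With identical coordinates required, no common locus overlapped any of the 24. Read depth and the caller's threshold are unknown, so neither the completeness of a list nor the precision of an interaction could be given.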
